A study of Homo sapiens with 32 samples.

Results

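The nuclear-encoded subunits of the respiratory chain, with their closely named relatives, were examined in SK-N-BE(2) cells exposed to cannabidiol (CBD). They were taken by gene symbol: names that begin with NDUFA, NDUFB, NDUFC, NDUFS or NDUFV and a digit for complex I (NDUFA4L2 left out), SDHA to SDHD for complex II, UQCR for complex III, COX4 to COX8 for complex IV and ATP5 for complex V. This gave 91 of the 22610 entries in the expression table, of which 41 belonged to complex I, 4 to complex II, 10 to complex III, 16 to complex IV and 20 to complex V. SK-N-BE(2) is an established human neuroblastoma line, and it was the single line used. Cells in separate wells received 20 µM CBD, a non-intoxicating cannabinoid of the Cannabis plant, in ethanol, or 0.1% ethanol alone as the vehicle, for 3, 6, 12 or 24 h, and every time had its own vehicle wells. The 8 groups held 4 samples each, 32 in all, and polyadenylated RNA was sequenced from each. The treatments were prepared in quadruplicate, and nothing states that the 4 wells came from separate cultures, so p-values measure the spread between these samples, which may be partly technical.

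The respiratory chain lies in the inner mitochondrial membrane. Complexes I (NADH dehydrogenase) and II (succinate dehydrogenase) pass electrons through ubiquinone to complex III and cytochrome c, complex IV (cytochrome c oxidase) hands them to oxygen, and complex V (ATP synthase) makes ATP from the proton gradient built on the way. All complexes but the second combine subunits encoded in the nucleus with subunits encoded in mitochondrial DNA; no entry of the table lay on the mitochondrial chromosome, so the mitochondrially encoded subunits were not analysed here. NDUFA4 is grouped with complex I by its name, although the protein is now known as a subunit of complex IV.

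Levels are given as FPKM, fragments per kilobase of transcript scaled to the mapped reads of the sample. A comparison of levels between genes rests on this division by length, and how well it serves short transcripts was not tested. Of the 91 entries, 74 were subunits of the 5 complexes and 17 were other entries (RNAs named as antisense, readthrough transcripts, retrocopies, tissue isoforms and related proteins). All 74 subunits passed the filter of a mean FPKM of at least 1 over the 32 samples, as did 6 of the 17 other entries, so that 80 were tested. Markers of neuroblastoma cells were high in the samples, with mean FPKM of 1762 for MYCN, 498 for HAND2 and 506 for CHGA, whereas the epithelial marker EPCAM was at 2.51. In bulk RNA of a culture, less RNA of a gene in each cell and fewer cells that express it cannot be told apart.

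The subunits of cytochrome c oxidase and ATP synthase had the highest median levels of the 5 complexes. The median of the mean FPKM was 264 over the 10 subunits of complex IV, from 119 for COX6B1 to 578 for COX7C. It was 242 over the 15 of complex V, from 60.8 for ATP5G3, which encodes a copy of the c ring subunit, to 525 for ATP5B, the catalytic beta subunit. Complex I had a median of 81.6 over 37 subunits, spanning NDUFA10 at 12.4 to NDUFA13 at 319. Complex III had 56.3 over 8 subunits, with UQCRB at 27.7 and UQCRH at 262 as its limits. The 4 subunits of complex II ranged from 34.8 for SDHC to 64.8 for SDHD around a median of 48.7. Among the tissue isoforms of complex IV, COX8C, the form of subunit 8 known from testis, was at 1.29, COX4I2 at 0.299 and COX6B2 at 0.101. The muscle isoforms COX6A2 and COX7A1 were listed at 0 in 28 and 24 of the 32 samples.

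**Figure D1:**
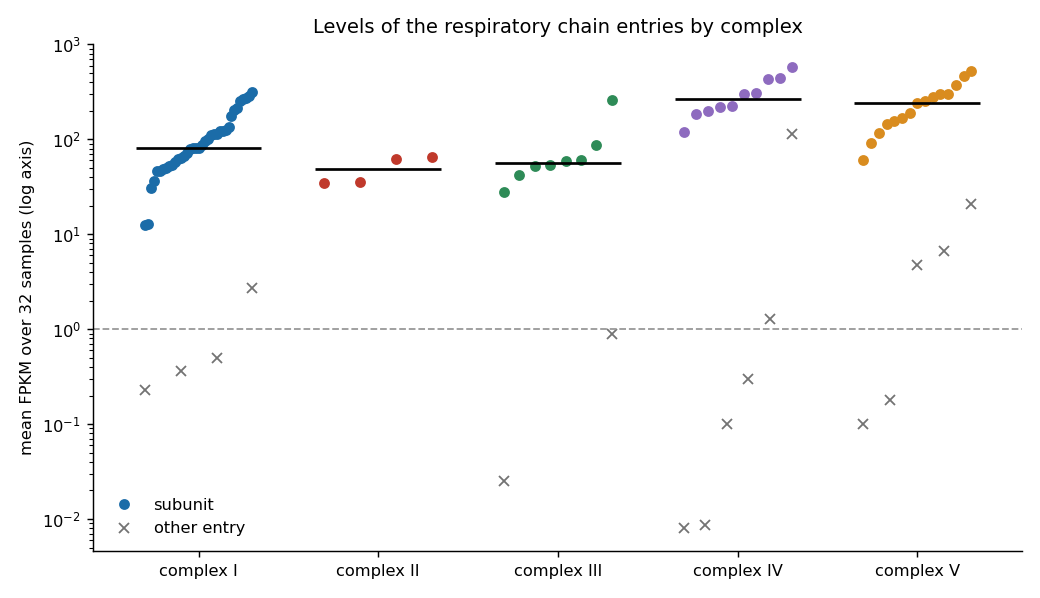
Mean FPKM over all 32 samples (vertical log axis) of each entry by complex (horizontal axis); filled points are subunits, crosses are other entries, black bars are the median of the subunits and the dashed line is the filter at 1 FPKM. The medians of complexes IV (264) and V (242) lie above those of complexes I (81.6), II (48.7) and III (56.3).

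The summed FPKM of a complex's subunits gave the course of each complex. Complex I summed to 4256 ± 150 FPKM (mean ± SD, n = 4) with vehicle and 4505 ± 137 with CBD at 3 h, and to 3781 ± 18.4 and 3565 ± 97.1 at 24 h. At 24 h its 4 vehicle samples lay between 3755 and 3797 and its 4 CBD samples between 3455 and 3651, so these groups did not overlap. Complex IV with CBD at 6 h, 3234 ± 111, lay above its vehicle at 3021 ± 93.3 without overlap, and so did complex V, 3867 ± 91.3 against 3732.5 ± 56.1. In the 17 other pairs of groups, among them all of complexes II and III, the vehicle and CBD samples overlapped. Complex II summed to 183 ± 4.58 with vehicle and 189 ± 2.25 with CBD at 24 h, and complex III to 611 ± 4.66 and 607 ± 18.4. These sums were not tested, since every member was tested by itself.

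**Figure D2:**
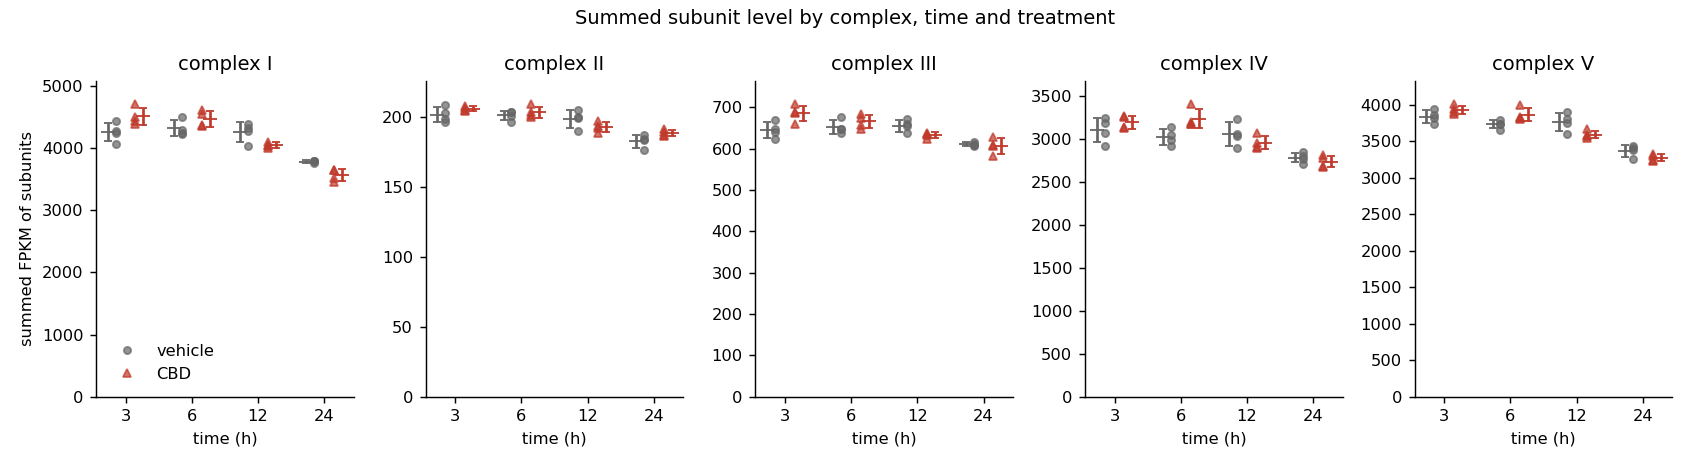
Summed FPKM of the subunits of each complex (vertical axes, from 0) against time in h (horizontal axes). Points are single samples, and the bars beside them give the mean and SD of the 4 vehicle or the 4 CBD samples. Both treatments decline to 24 h, and the complex I samples separate at 24 h (3755 to 3797 with vehicle, 3455 to 3651 with CBD).

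The first question of the design is what CBD changed at each time against the vehicle of that time. It was tested with limma on log2(FPKM + 1) over the 12621 genes that passed the filter, and a gene counted as changed at a Benjamini-Hochberg adjusted p under 0.01. At 3 h 1 of the 80 members passed, as higher, against 2.46% of all genes tested (1.18% higher and 1.28% lower). The 4 CBD samples lay above the 4 vehicle samples in 9 members and below them in none, where this held for 5.52% and 4.36% of all genes. The member that passed was COX4I1, the main isoform of the nuclear-encoded subunit 4 of complex IV. COX4I1 was at 309.6, 298, 303 and 292 FPKM in the 4 vehicle samples and at 329, 322, 321 and 323 in the 4 CBD samples. All CBD samples lay above all vehicle samples, and the log2 fold change was 0.11 (SE 0.02, adjusted p = 0.005424). This call was lost when vehicle replicate 2, 3 or 4 or any of the 4 CBD replicates was left out, and it held in 10 of 21 alternatives. Below that threshold the differences of the subunits leaned to one side: 66 of 74 were positive, with a median log2 difference of 0.056, where the median of all genes was 0.0066. The medians were 0.065 for complex I, 0.020 for complex II, 0.071 for complex III, 0.041 for complex IV and 0.037 for complex V; with quantile normalization 50 subunits were positive, and the medians of complexes II, IV and V were below 0. At an unadjusted p under 0.05, 21 members were higher and 0 lower. The share of all genes at this cut-off was not counted, so these counts do not show whether the members differed from other genes. Transcript length moved with this lean, as described further on.

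At 6 h 3 members rose and none fell, against 10.2% of all genes (4.07% higher and 6.13% lower). The groups did not overlap in 10 members that were higher and 1 that was lower with CBD, where this held for 8.46% and 11.1% of all genes. NDUFB5, a supernumerary subunit of the membrane arm of complex I, was at 55.4, 55.0, 54.4 and 56.5 FPKM with vehicle and at 61.0, 62.5, 59.0 and 60.6 with CBD. COX7A2, the widely expressed isoform of complex IV subunit 7a, was at 189, 185, 176 and 178 and at 203, 209, 202 and 192. ATP5J, coupling factor 6 in the peripheral stalk of ATP synthase, was at 158, 154, 148 and 152 and at 172, 167, 165 and 165. In each of these the CBD samples lay above the vehicle samples without overlap, by log2 fold changes of 0.13 (SE 0.03), 0.15 (SE 0.04) and 0.13 (SE 0.03). Their adjusted p-values were 0.001818, 0.004873 and 0.002791. The count fell to 1 without vehicle replicate 3 or 4 or CBD replicate 1 or 2, and it rose to 6 without CBD replicate 4. All genes called numbered 1288 with every sample, 923 to 996 in the former fits and 1542 in the latter. With transcript length and GC content removed from each sample, as described further on, 2 members were higher and 6 lower, and of the 3 members that rose only NDUFB5 still passed. Of the 74 subunits 58 were positive, with a median of 0.045 (0.0089 with length and GC removed). At an unadjusted p under 0.05, 26 members were higher and 0 lower, again without a count over all genes to set them against. Complex IV had the highest median of the complexes, 0.080, and complex II the lowest, 0.013.

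At 12 h the sign had turned. Only 7 of 74 subunits were positive and 67 negative, with a median log2 difference of -0.059 against -0.0043 over all genes, and the median was negative in every complex, from -0.036 in complex II to -0.074 in complex V. There were 5 members that fell and none that rose, where 20.1% of all genes passed, 8.85% as higher and 11.2% as lower. The CBD samples lay below the vehicle samples without overlap in 9 members and above them in none, where this held for 16.9% and 13.4% of all genes. At an unadjusted p under 0.05, 31 members were lower and 1 higher. All genes were again not counted at this cut-off, so these counts cannot be set against them. Of the 5 that fell 4 belonged to complex I and 1 to complex III.

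NDUFV2, the 24-kDa iron-sulfur subunit in the NADH-binding part of complex I, was at 47.3, 48.1, 49.5 and 47.3 FPKM with vehicle and at 43.0, 42.2, 44.9 and 44 with CBD. Its groups did not overlap, and its log2 fold change was -0.14 (SE 0.03, adjusted p = 0.0007207). NDUFA12, a supernumerary subunit next to that part, was at 105, 105, 110.2 and 105 with vehicle and at 96.7, 93.3, 90.4 and 101 with CBD (log2 fold change -0.16, SE 0.03, adjusted p = 0.0003843). NDUFC2, a supernumerary subunit of the membrane arm, was at 56.4, 51.8, 53.0 and 49.7 and at 45.4, 47.4, 45.7 and 48.5 (-0.17, SE 0.04, adjusted p = 0.0007522). Both again separated without overlap. NDUFA13, also known as GRIM-19, was at 333, 330.3, 346 and 309 and at 298, 307, 303 and 296 (-0.13, SE 0.03, adjusted p = 0.004217). UQCR10, a small supernumerary subunit of complex III, was at 59.4, 55.3, 57.4 and 55.0 with vehicle and at 48.3, 48.1, 47.5 and 53.8 with CBD (-0.20, SE 0.04, adjusted p = 0.0008662). Its CBD replicate 4 stood close to the vehicle samples, while the other 3 lay well below them. The count was 8 without vehicle replicate 4, where 2405 of 12625 genes passed.

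At 24 h 5 members rose and 14 fell, 19 of the 80 tested (23.8%), where 42.1% of all genes passed, 20.8% as higher and 21.3% as lower. Of the 14 that fell 9 were subunits of complex I, 1 of complex II, 1 of complex III, 1 of complex IV and 2 of complex V. The 5 that rose were SDHA and SDHB of complex II, UQCRC2 and UQCRFS1 of complex III and COX8C. Over the 74 subunits 20 were positive and 54 negative, with a median log2 difference of -0.052 against -0.0032 for all genes. Complex I had the lowest median, -0.077, complexes III, IV and V had -0.029, -0.025 (above 0 with quantile normalization) and -0.044, and complex II, with 0.065, was the one complex with a positive median. The CBD and vehicle samples did not overlap in 8 members that were higher and 19 that were lower with CBD, where this held for 25.1% (higher) and 25.9% (lower) of all genes.

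**Figure D3:**
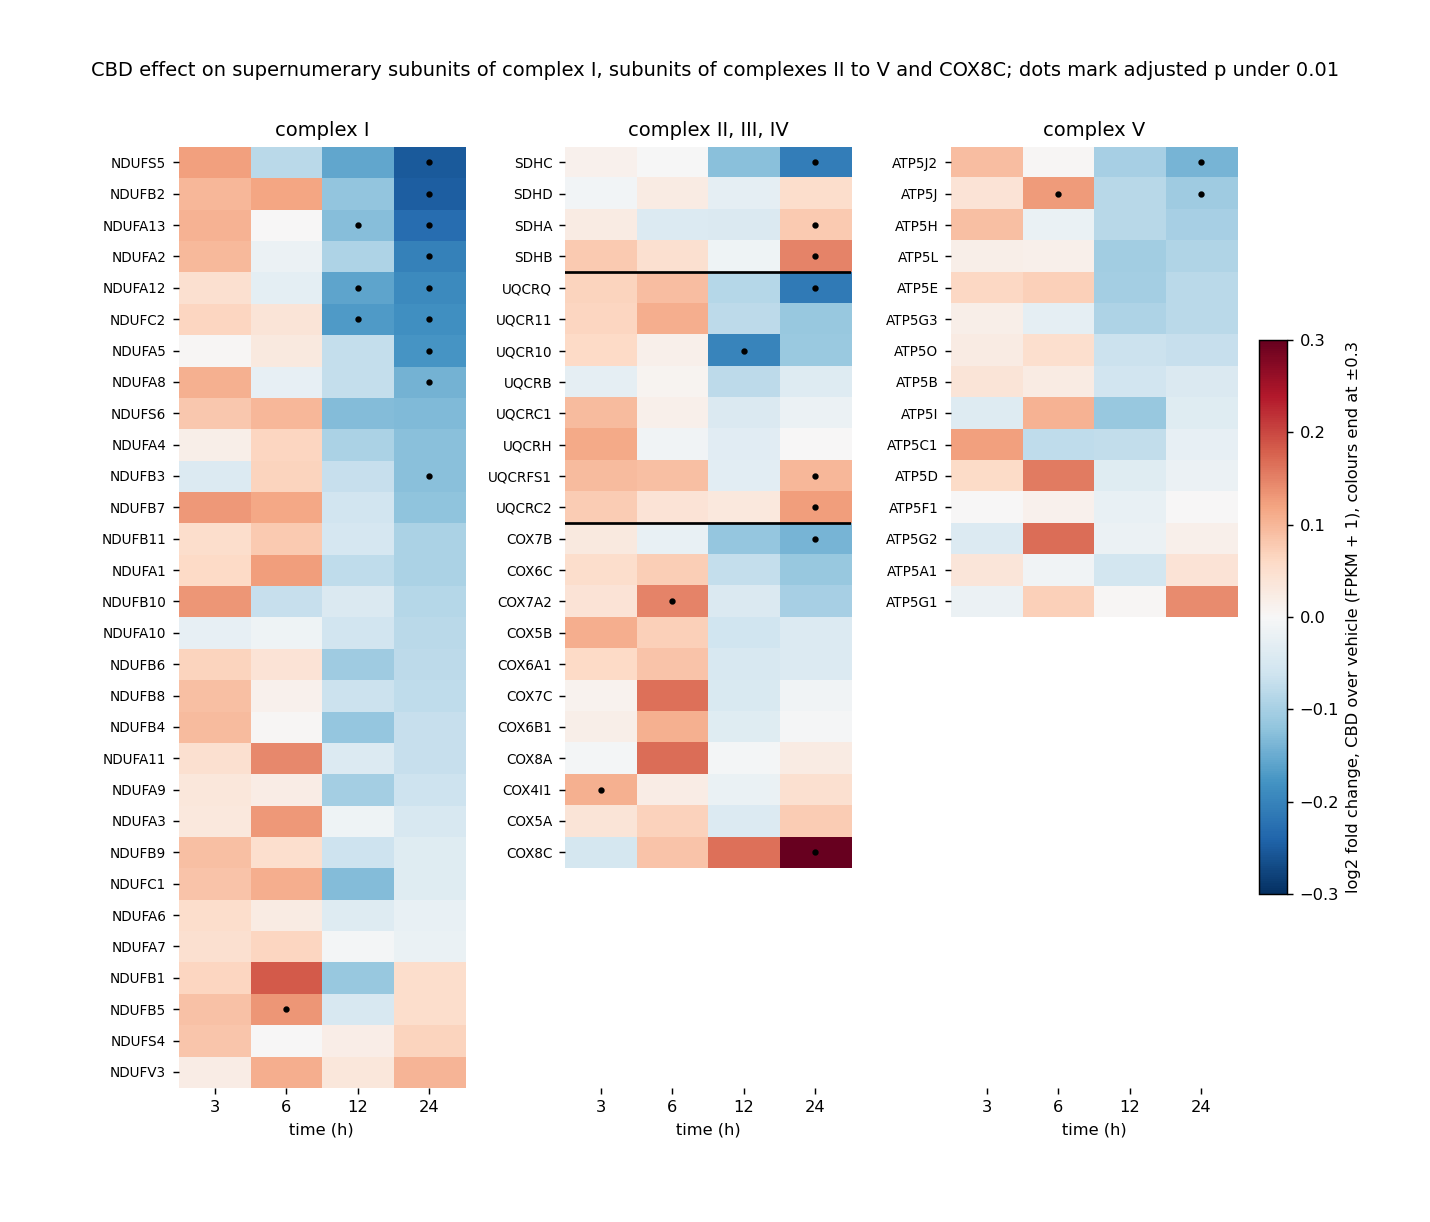
Log2 fold change of CBD over vehicle (colour, on the log2(FPKM + 1) scale) for the 30 supernumerary subunits of complex I, the subunits of complexes II to V and COX8C (rows, by complex) at 3, 6, 12 and 24 h (columns); dots mark an adjusted p under 0.01. In complex I positive values prevail at 3 and 6 h (28 and 24 of 30) and negative ones at 12 and 24 h (28 and 26).

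The complex I subunits that fell at 24 h were all supernumerary, that is, subunits which surround the catalytic core. NDUFS5 (chr1:39491990-39500308, plus strand, hg19), a subunit on the intermembrane side, was at 228, 222, 237 and 238 FPKM with vehicle and at 183, 187, 198 and 208 with CBD. NDUFB2 (chr7:140390577-140422590, plus strand), a small membrane arm subunit, was at 137, 138, 135 and 139 and at 118, 109.9, 116 and 118. NDUFA13 (chr19:19626545-19639863, plus strand) was at 309, 302, 316 and 309.7 and at 260.5, 251, 270.1 and 273. In all 3 genes the highest CBD sample lay below the lowest vehicle sample. Their log2 fold changes were -0.25 (SE 0.06, adjusted p = 0.0009866), -0.25 (SE 0.04, adjusted p = 2.878e-05) and -0.23 (SE 0.03, adjusted p = 1.995e-06). For NDUFS5 this was a change of -16.0% on the FPKM + 1 scale.

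NDUFA2, a small subunit of the matrix arm, was at 57.9, 59.3, 59.3 and 60.5 FPKM with vehicle and at 50.7, 54.5, 49.7 and 50.5 with CBD (log2 fold change -0.20, SE 0.04). NDUFA12 was at 93.6, 91.1, 91.2 and 94.9 and at 79.2, 79.3, 83.0 and 82.8 (-0.19, SE 0.03). NDUFC2 was at 42.8, 43.5, 45.8 and 44.4 and at 38.3, 41.2, 37.6 and 37.8 (-0.18, SE 0.04). These 3 separated without overlap, and NDUFA12 and NDUFC2 had also fallen at 12 h. NDUFA5, of the matrix arm, was at 11.8, 12.3, 12.4 and 12.8 and at 10.7, 10.3, 10.9 and 11.1 (-0.18, SE 0.04), and NDUFA8, on the intermembrane side, at 60.6, 59.5, 62.2 and 64.4 and at 54.9, 54.6, 56.5 and 57.2 (-0.14, SE 0.03). NDUFB3, a membrane arm subunit, was the one whose groups overlapped, with 38, 40.9, 42.0 and 41.7 against 36.2, 39.1, 35.6 and 37.7 (-0.13, SE 0.04). The adjusted p-values of these 6 ran from 1.469e-05 for NDUFA12 to 0.005937 for NDUFB3. Part of the sequence of NDUFC2 and NDUFA13 is shared with readthrough transcripts: 17.3% and 17.1% of the 50-base words of their transcripts occurred in such a gene too, so reads there could be assigned to either.

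None of the 7 core subunits of complex I passed at 24 h, where 42.1% of all genes did (20.8% higher and 21.3% lower). These subunits carry the flavin, the iron-sulfur clusters and the quinone site. An unadjusted p under 0.05 was reached by 0 of the 7. All genes were not counted at this cut-off, so this count cannot be set against them. The median log2 difference was -0.0054 over the core and -0.083 over the 30 supernumerary subunits, and the difference between these groups of genes was not tested. NDUFS1, the largest subunit of the iron-sulfur chain, was at 28.9, 30.3, 32.0 and 31.1 FPKM with vehicle and at 30.0, 30.4, 30.7 and 30.4 with CBD. The samples of NDUFS1 overlapped throughout, and its log2 difference was -0.0067. NDUFS7, which holds the last iron-sulfur cluster before ubiquinone, was at 88.2, 86.7, 82.8 and 75.0 and at 88.7, 87.7, 103 and 94.1. It had the highest log2 difference of the core, 0.17, with a standard error of 0.10 and an adjusted p of 0.1622. NDUFA4 was at 71.1, 76.8, 75.9 and 75.6 and at 69.1, 69.7, 65.3 and 69.9, without overlap, and missed the threshold at an adjusted p of 0.01474.

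The 4 genes of complex II did not move alike at 24 h. SDHA (the flavoprotein that oxidizes succinate) was at 34.4, 35.4, 35 and 35.3 FPKM with vehicle and at 35.7, 36.8, 38.3 and 37.4 with CBD. SDHB (chr1:17345159-17380527, minus strand), the iron-sulfur subunit, was at 51.1, 52.7, 53.1 and 55.4 and at 55.9, 60.7, 60.0 and 59.1. Every CBD sample of both genes lay above every vehicle sample, with log2 fold changes of 0.078 for SDHA (SE 0.02, adjusted p = 0.005642) and 0.15 for SDHB (SE 0.03, adjusted p = 0.0002756). SDHC, a membrane anchor that binds heme and ubiquinone, was at 30.4, 32.2, 32.7 and 32.0 with vehicle and at 28.9, 28.3, 25.8 and 26.8 with CBD. It fell without overlap, by a log2 fold change of -0.21 (SE 0.04, adjusted p = 0.0003188). SDHD, the other anchor, was at 60.6, 63.2, 63.5 and 64.6 and at 66.3, 65.8, 65.4 and 63.8, and its groups overlapped (0.05, SE 0.03, adjusted p = 0.1552). Of the words of SDHA 24.4% were shared with another annotated gene and 11.8% of those of SDHC, against 0.0% for SDHB.

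In complex III a core protein and the Rieske protein rose while a small subunit fell. UQCRC2 (chr16:21964609-21994981, plus strand), core protein 2 on the matrix side, was at 86.4, 86.7, 87.6 and 89.3 FPKM with vehicle and at 94.2, 95.3, 97.5 and 95.4 with CBD. UQCRFS1, the Rieske iron-sulfur protein that passes electrons to cytochrome c1, was at 34.4, 36.7, 34.7 and 34.5 and at 37.5, 37.7, 37 and 38.2. UQCRQ (chr5:132202322-132204539, plus strand), a small supernumerary subunit, was at 42.2, 44.3, 44.9 and 43.5 and at 38.6, 36.4, 37.6 and 37.7. None of these groups overlapped. The log2 fold changes were 0.13 for UQCRC2 (SE 0.02, adjusted p = 6.369e-06), 0.10 for UQCRFS1 (SE 0.03, adjusted p = 0.006678) and -0.21 for UQCRQ (SE 0.04, adjusted p = 4.522e-05). UQCRFS1 shared 15.5% of its words with other annotated genes, of which UQCRFS1P1, a pseudogene, held the most.

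Of complexes IV and V few members passed at 24 h. COX7B, a small subunit of cytochrome c oxidase, was at 269, 269, 289.9 and 281 FPKM with vehicle and at 237, 279, 240.1 and 252 with CBD. The second CBD sample reached the vehicle range, and the log2 fold change was -0.14 (SE 0.04, adjusted p = 0.007644). ATP5J2, subunit f in the membrane part of ATP synthase, was at 259, 259, 266 and 269 and at 230.2, 244, 236 and 246, without overlap (-0.14, SE 0.03, adjusted p = 0.0003582). ATP5J was at 140.3, 143, 143 and 151 and at 129.7, 142, 129 and 136 (-0.11, SE 0.03, adjusted p = 0.003445), so the member that had risen at 6 h was lower at 24 h, with 1 CBD sample inside the vehicle range. None of the 5 genes of the catalytic F1 head and none of the 3 genes of the c ring passed, where 42.1% of all genes did. At an unadjusted p under 0.05, 1 F1 gene was lower and 1 c ring gene higher. All genes were not counted at this cut-off, so these counts cannot be set against them. COX4I1, which had risen at 3 h, had a log2 difference of 0.05 at 24 h, and its groups overlapped.

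COX8C rose at 24 h from a low level. It was at 1.25, 1.47, 0.929 and 0.840 FPKM with vehicle and at 2.36, 2.47, 2.16 and 1.89 with CBD, and the groups did not overlap. The log2 fold change was 0.61 (SE 0.12, adjusted p = 0.0001604), which understates the ratio of a gene this low because of the added 1. COX8C (chr14:93813528-93814702, plus strand) lies inside UNC79, a gene on the same strand, without sharing an exon with it. UNC79 had a log2 difference of 0.07 at 24 h and an adjusted p of 0.01565. Whether reads from unspliced UNC79 RNA reached COX8C was not tested.

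**Figure D4:**
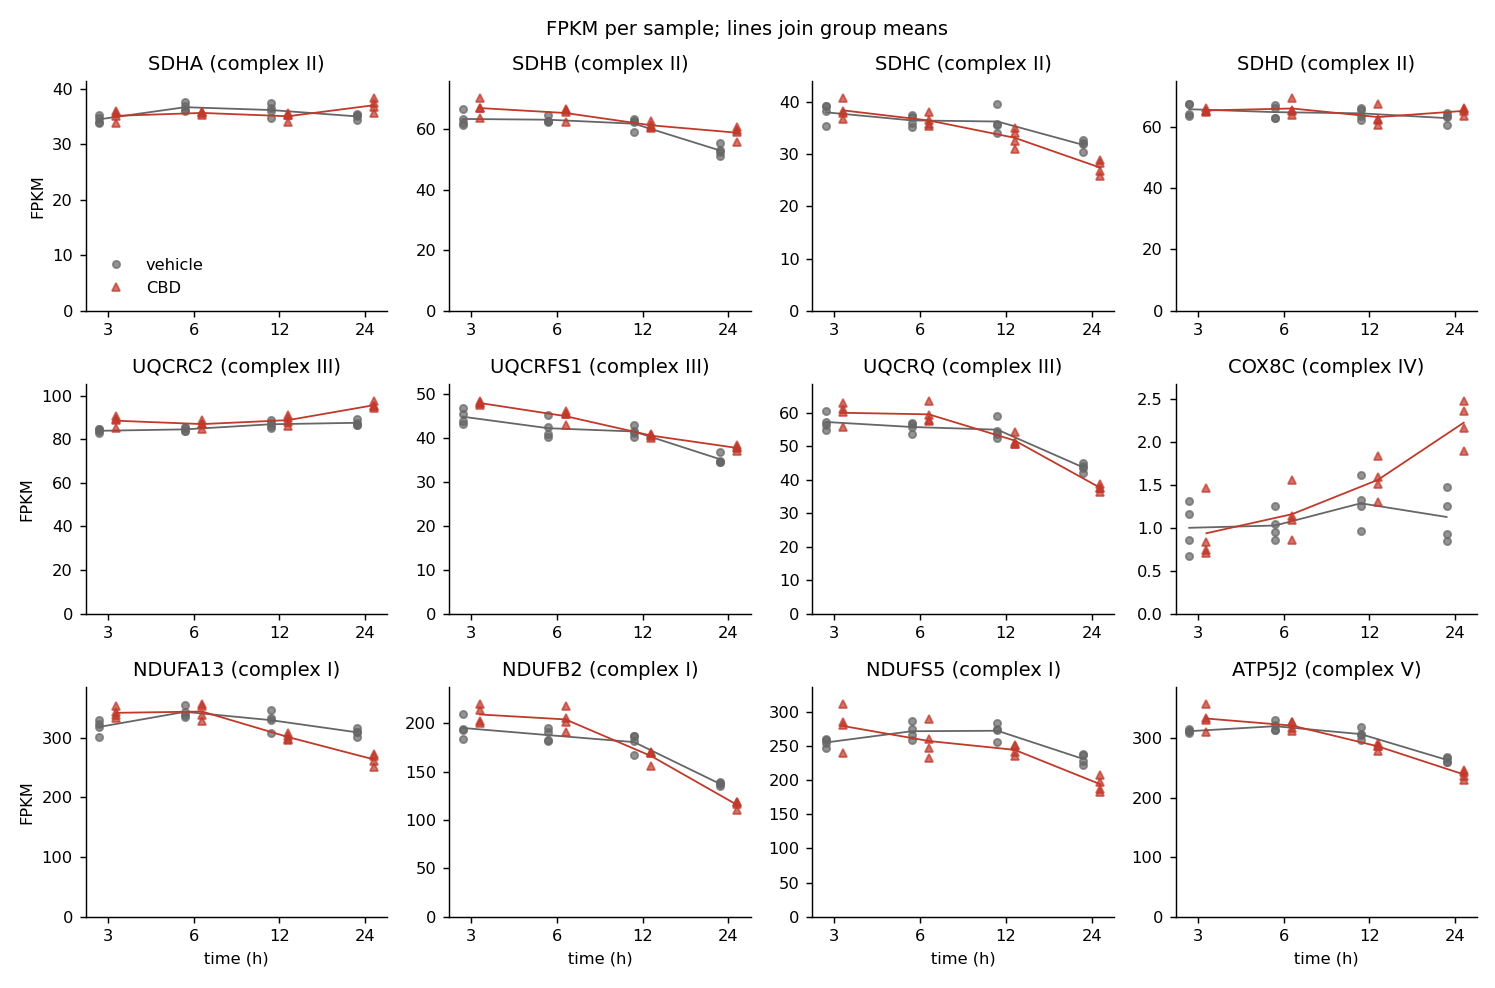
FPKM (vertical axes, from 0) in each sample against time in h (horizontal axes) for members named in the text, with lines through the means of the 4 vehicle and the 4 CBD samples. SDHB and UQCRC2 lie higher and NDUFB2, NDUFA13, SDHC and UQCRQ lower with CBD at 24 h, in each case without overlap.

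Promoter sequences are shown for 5 members that passed at 24 h, since nuclear respiratory genes are known to share sites for NRF1, for ETS factors such as GABP and for YY1. RefSeq promoters (GRCh38.p14, from 250 bases before to 50 after the annotated start) were matched by symbol for 61 of the 74 subunits and searched on both strands for GCGCATGCG (NRF1), CCGGAAG (ETS), AAGATGGCG (YY1) and CCAAT. The ETS and YY1 letters can overlap by AAG. The 5 were picked after it was known which letters their promoters held. Each line gives the 150 bases before the start, 5′ to 3′ on the gene's strand, with matches in capitals.
ATP5J, chr21:25735055-25735204, minus strand, NRF1, YY1 and ETS letters at -120, -57 and -30: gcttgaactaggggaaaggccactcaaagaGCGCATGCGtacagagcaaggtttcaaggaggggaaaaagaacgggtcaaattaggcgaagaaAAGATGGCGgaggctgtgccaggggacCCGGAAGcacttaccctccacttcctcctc
NDUFA13, chr19:19516075-19516224, plus strand, ETS letters at -10: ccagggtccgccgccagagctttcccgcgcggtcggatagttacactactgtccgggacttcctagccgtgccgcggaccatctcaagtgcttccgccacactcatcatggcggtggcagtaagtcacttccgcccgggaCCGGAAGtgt
UQCRQ, chr5:132866492-132866641, plus strand, ETS letters at -54: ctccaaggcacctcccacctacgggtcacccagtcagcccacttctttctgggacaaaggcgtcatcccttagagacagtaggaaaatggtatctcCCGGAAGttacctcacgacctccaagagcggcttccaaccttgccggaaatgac
SDHB, chr1:17054033-17054182, minus strand, ETS letters at -128: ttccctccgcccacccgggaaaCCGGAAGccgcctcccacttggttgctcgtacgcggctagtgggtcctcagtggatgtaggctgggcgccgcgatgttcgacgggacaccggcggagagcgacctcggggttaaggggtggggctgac
UQCRC2, chr16:21953211-21953360, plus strand, CCAAT on the other strand at -111: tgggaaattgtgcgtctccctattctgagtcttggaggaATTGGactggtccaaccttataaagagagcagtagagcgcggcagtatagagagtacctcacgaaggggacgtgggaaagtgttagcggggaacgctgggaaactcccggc
Positions are those of the first base, counted back from -1 just before the start.

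The motif shares of the subunits are set beside those of the tested genes and of all promoters, without a test. NRF1 letters stood in 10 of 61 subunit promoters (16.4%), in 4.01% of the 9480 tested genes with a promoter and in 2.1% of all 27305 promoters. ETS letters stood in 31.1%, 20.4% and 10.7%, and YY1 letters in 13.1%, 4.36% and 1.85%. CCAAT was found in 31.1% of the subunits, 37.4% of the tested genes and 35.7% of all promoters. At least 1 of the NRF1, ETS and YY1 motifs was found in 30 subunits (49.2%), in 26.6% of the tested genes and in 13.6% of all promoters. Among subunits with a promoter the share was 4 of 10 for those that fell at 24 h, 1 of 4 for those that rose and 25 of 47 for the rest. In the printed promoters SDHB, which rose, and NDUFA13 and UQCRQ, which fell, all hold the ETS letters. A match of letters is a description of the sequence and does not show binding.

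The design also asks whether the effect of CBD changed with time, which was tested as the effect at 24 h minus that at 3 h. This difference passed for 16 of the 80 members, 15 lower and 1 higher, against 27.2% of all genes (14.3% lower and 12.9% higher). NDUFS5 had the most negative value, -0.38 (SE 0.09, adjusted p = 0.0009778). It was at 255, 248, 259.8 and 258 FPKM with vehicle and at 240.1, 285, 280.4 and 311 with CBD at 3 h, where the groups overlapped, before the separation at 24 h given above. NDUFB2 (-0.35), NDUFA13 (-0.33), NDUFA2 (-0.30) and UQCRQ (-0.28) followed. The other 10 that were lower were NDUFB7, NDUFC2, NDUFA8, NDUFA12, ATP5J2, SDHC, ATP5H, NDUFA5, NDUFB8 and ATP5J, from -0.25 to -0.15. NDUFB7, NDUFB8 and ATP5H (subunit d of the peripheral stalk) had passed at neither time by themselves. For ATP5H the vehicle samples were at 308, 284, 305 and 304 and the CBD samples at 292, 319.7, 326 and 342 at 3 h, and at 295, 283, 301 and 301 and at 268, 276, 276 and 281 at 24 h. COX8C was the member with a higher effect at 24 h (0.66, adjusted p = 0.003585). SDHB and UQCRC2, which rose at 24 h, had differences of 0.07 and 0.05 between the times that did not pass (adjusted p = 0.2237 and 0.1646). The vehicle samples of both times enter this difference, so it shares samples with the other comparisons.

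Time in culture was followed in the vehicle samples at 24 h against 3 h. Here 47 members fell and 4 rose, 63.7% of the 80 tested, where 57.8% of all genes passed, 31.1% as lower and 26.6% as higher. The samples of the 2 times did not overlap in 47 members that were lower and 4 that were higher at 24 h, where this held for 33.1% and 29% of all genes. Of the 74 subunits 66 were negative, with a median log2 difference of -0.17 against -0.013 for all genes. The medians were -0.21 in complex I, -0.16 in complex II, -0.12 in complex III, -0.13 in complex IV and -0.17 in complex V. It ran through the core of the enzymes as well: 5 of the 7 core subunits of complex I, 3 of the 5 F1 genes and all 3 c ring genes fell.

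NDUFS6, a zinc-binding subunit of the matrix arm of complex I, was at 146, 141, 136 and 132 FPKM at 3 h and at 96.5, 91.4, 94.1 and 90.7 at 24 h (-0.57, SE 0.06, adjusted p = 3.183e-09). NDUFB2 was at 209, 193, 194 and 184 and at 137, 138, 135 and 139 (-0.50, SE 0.04, adjusted p = 1.274e-10). NDUFA9, which stabilizes the junction of the arms, was at 59.0, 57.4, 57 and 54.9 and at 39.5, 42.1, 41.7 and 41.6 (-0.46, SE 0.03, adjusted p = 3.233e-12). All 3 dropped without overlap. The members that rose were NDUFA7 with 114, 115, 113 and 110.4 at 3 h and 124, 128, 134 and 123 at 24 h (0.17), NDUFV1, the flavoprotein of complex I, with 126, 128, 124 and 120.0 and 141, 138, 135 and 139.6 (0.15), UQCRC2 (0.061) and NDUFA6-AS1 (0.22), an RNA of the other strand beside NDUFA6. Their samples did not overlap either. The vehicle samples at 24 h also enter the CBD comparison at 24 h, so both values of a gene are set side by side without a correlation. NDUFB2 had -0.50 with time and -0.25 with CBD at 24 h, SDHB -0.25 and 0.15, SDHC -0.25 and -0.21, UQCRFS1 -0.34 and 0.10, and UQCRC2 0.061 and 0.13.

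Transcript length moved with the differences at 3 and 6 h. Most subunit transcripts are short: of 73 subunits with a length in the GENCODE annotation of hg19, 20 had at most 600 bases and 23 had 600 to 1000. At 3 h the median log2 difference of all tested genes was 0.055 at up to 600 bases, 0.066 at 600 to 1000, 0.042 at 1000 to 2000, 0.015 at 2000 to 4000 and -0.021 above 4000 bases. The subunits in the same classes had 0.056, 0.087, 0.058, 0.027 and 0.028, so at up to 600 bases they stood at the level of all genes of that length. At 6 h all genes had 0.047, 0.034, 0.017, -0.0041 and -0.022 in these classes and the subunits 0.10, 0.051, 0.025, 0.026 and 0.016, so the subunits of up to 600 bases then lay above their class. At 24 h the medians of all genes stayed between -0.013 and 0.0032 over the 5 classes. Those of the subunits were -0.098, -0.048, -0.020, -0.081 and -0.023. The 14 subunits that fell at 24 h had a median length of 605.5 bases, the 4 that rose 2303.5 and the 56 others 758.

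**Figure D5:**
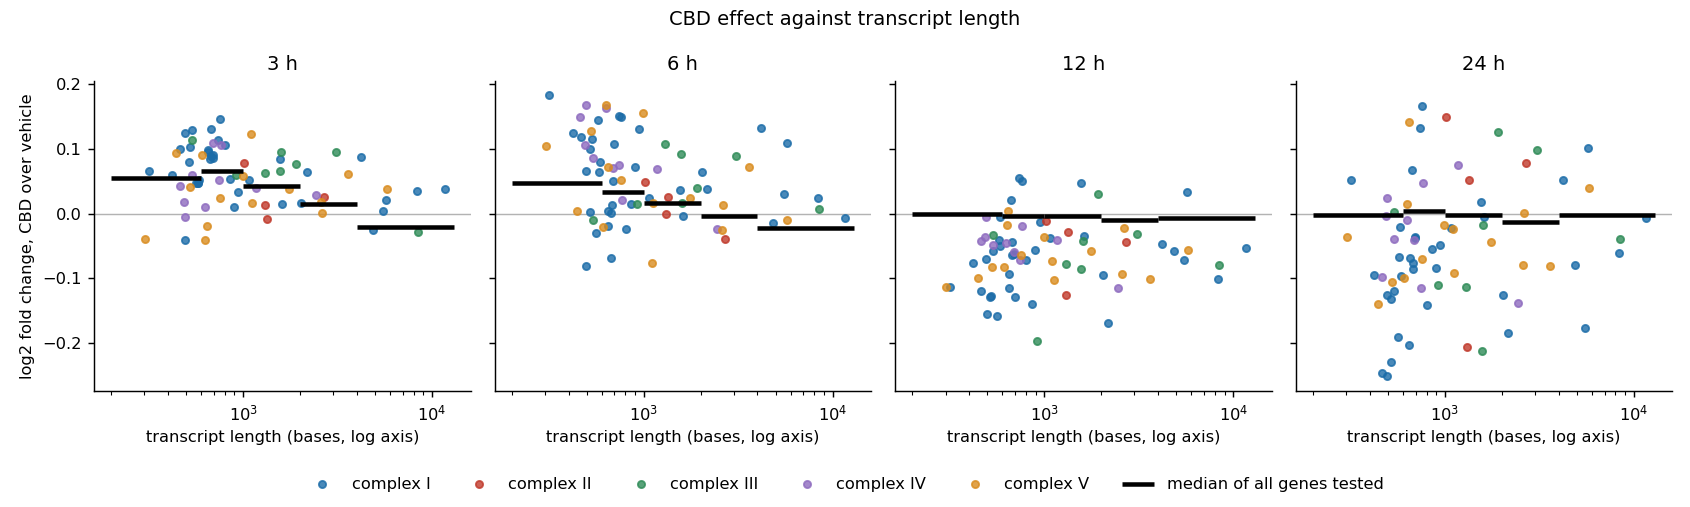
Log2 fold change of CBD over vehicle (vertical axis) against transcript length in bases (horizontal log axis) at 3, 6, 12 and 24 h; points are subunits, coloured by complex, and black bars are the median of all tested genes in each length class. At 3 h the bars slope from 0.055 in the shortest class to -0.021 in the longest, and at 24 h they stay between -0.013 and 0.0032 while the subunits of up to 600 bases have a median of -0.098.

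With the trend on length and GC content removed from each sample, an alternative added after the data were seen, the medians of the subunits were nearer to 0 at 3 and 6 h and farther from it at 12 and 24 h. Of 73 subunits 40 were positive at 3 h, with a median log2 difference of 0.0043, and 38 at 6 h, with 0.0089. At 12 h 68 were negative, with a median of -0.088, and at 24 h 57, with -0.068. No member passed at 3 h, where 4.1% of the genes did. At 6 h 2 members were higher and 6 lower, where 16.9% of the genes passed, 8.01% as higher and 8.86% as lower, and only 1 of the 3 members called without this step, NDUFB5, passed with it. At 12 h 24 of 79 members were lower, where 28.7% of the 11703 genes passed and 16% passed as lower. Of these 24, 17 belonged to complex I and 5 to complex V. At 24 h 26 were lower and 6 higher, where 52.4% passed, 27.8% as lower and 24.6% as higher. All 19 members called at 24 h and all 5 called at 12 h without this step passed with it too, unlike those at 3 and 6 h.

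The scaling between samples also shifted the split at 24 h. With median-ratio factors 3 members rose and 21 fell, where 17.6% and 25.7% of all genes did. With quantile normalization 10 rose and 12 fell, where 21.1% and 21.8% did, against 5 and 14 above. For the difference between 24 h and 3 h quantile normalization gave 5 higher and 10 lower, against 1 and 15. Of all 12621 genes 3411 then passed, 50.1% of these as higher, against 1625 higher and 1810 lower without it. SDHB, UQCRC2 and COX8C were called higher in every alternative in which they were tested. ATP5J2, NDUFA2, NDUFA5, NDUFA8, NDUFA12, NDUFA13, NDUFB2, NDUFC2, NDUFS5, SDHC and UQCRQ were called lower in all 21.

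The 47 assembly factors tested, which build the complexes without staying in them, had 11 members higher and 10 lower at 24 h, 44.7% called, close to the 42.1% of all genes (20.8% higher and 21.3% lower). SDHAF4, which helps to join SDHA with SDHB, had a log2 fold change of 0.57, COA3, an early factor of complex IV, -0.40, and SCO2, a copper chaperone of complex IV, -0.32. Of 17 genes of the citric acid cycle and pyruvate dehydrogenase 4 rose and 1 fell (29.4% called), among them IDH3A (0.26), SUCLG2 (0.25) and IDH3B (-0.21). Of 12 regulators of respiratory gene transcription 4 rose and 1 fell, 41.7% and so again near the share of all genes: ESRRA (0.31), TFB1M (0.23), PPRC1 (0.22) and POLRMT (0.19) were higher, and TFAM, which packages mitochondrial DNA, was lower (-0.15). None of 6 further chain components that the symbol rule left out, such as CYC1 and CYCS, passed at 24 h (lowest adjusted p = 0.185, NDUFAB1), while all 6 fell in the vehicle samples with time.

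A family of similar size whose proteins also work in mitochondria, the 78 mitochondrial ribosomal proteins tested, had median log2 differences of 0.062, 0.0079, -0.049 and -0.048 at 3, 6, 12 and 24 h, and -0.18 in the vehicle samples with time. The subunits of the chain had 0.056, 0.045, -0.059, -0.052 and -0.17. The 79 cytosolic ribosomal proteins, also short and abundant transcripts, had 0.084, 0.014, 0.018 and 0.10, and 0.17 with time. At 24 h 25 of them rose and 2 fell (34.2% called), against 7 and 22 of the mitochondrial ones (37.2% called). Both shares lay below the 42.1% of all genes, 20.8% as higher and 21.3% as lower. No test of the differences between these families was made.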

How the data were processed

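The authors sequenced polyadenylated RNA as single reads, trimmed them with Trimmomatic 0.36, aligned them with TopHat to hg19 and deposited 1 table of FPKM values made with Cufflinks, and a Cuffdiff table of log2 fold changes and q-values, which was not used. Per the labels the libraries came from a Nugen kit, and the study's methods name a TruSeq kit. FPKM hold no read counts, so the absolute depth is unknown; relative depth, estimated from the step of 1 read in 1414 low genes, ran from 0.794 to 1.20. The entries MIR4461 and MIR6723 held 49.9% of all FPKM.

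The 12621 of 22610 genes whose FPKM averaged 1 or more were tested as log2(FPKM + 1), a scale that understates the change of low genes, with limma 3.58.1 in R 4.3.3: 8 group means, a trended empirical Bayes variance and Benjamini-Hochberg adjustment within each comparison, at 0.01. The fit was tested on simulated data. Means, motif searches and plots were made with Python 3.11.15, numpy 2.4.6, pandas 2.3.3 and matplotlib 3.10.9. Positions come from the GENCODE annotation on hg19 and promoters from RefSeq (GRCh38.p14). Gene lengths and GC contents matched 11703 of 12621 genes (92.7%), and NDUFB6 had none.

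Every member called for CBD against vehicle is named with its values, and of the other genes only those of the role and pathway lists. The values of 1 member by itself are not reported here. The members and lists were chosen with earlier results of these data known. Alternatives changed the pseudocount, filter, scaling, threshold, variance model, samples fitted, replicate block and replicates left out, and a correction for length and GC was added after the data were seen. Replicate numbers did not pair the CBD and vehicle samples of a time: none of 16 such pairs with the same number correlated over 0.1. Whether the numbers pair samples of different times was not examined.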

Additional observations from a re-analysis of the deposited data

Results flagged for a closer look

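In 93 groups of 4 samples (the levels named above and the sums by complex), 5 had a sample apart from the other 3 by the 95% limit of Dixon's test, near the 5% that chance gives. UQCR10 was at 53.8 FPKM in CBD replicate 4 at 12 h, where the others lay between 47.5 and 48.3. NDUFA12 was at 110.2 in vehicle replicate 3 at 12 h, with the others between 105.1 and 105.4, and UQCRFS1 at 36.7 in vehicle replicate 2 at 24 h, with the others between 34.4 and 34.7. CBD replicate 2 at 6 h had the highest sum of both complex IV (3399, others 3167 to 3199) and complex V (4002, others 3809 to 3839).

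The effect of CBD at 24 h differed from that at 3 h, by the limma test of the difference with Benjamini-Hochberg adjustment, in 16 members, and the log2 differences were -0.38 for NDUFS5, -0.35 for NDUFB2, -0.33 for NDUFA13, -0.30 for NDUFA2, -0.28 for UQCRQ, -0.25 for NDUFB7, -0.25 for NDUFC2, -0.25 for NDUFA8, -0.24 for NDUFA12, -0.23 for ATP5J2, -0.22 for SDHC, -0.19 for ATP5H, -0.18 for NDUFA5, -0.17 for NDUFB8, -0.15 for ATP5J and 0.66 for COX8C. Of the 15 lower ones 9 passed in all 29 alternatives, while COX8C did not pass in all of its 28.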

How the results depend on the processing

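The number of members called depended on the settings as follows, and why it changed was not tested for any of them. At 3 h, with 1 called, there were 0 with quantile normalization, 0 with a depth covariate in the fit, 4 at an adjusted p under 0.05, 0 with the 3 h samples fitted alone, 0 with length and GC removed and 0 to 3 with 1 replicate left out. Over all genes 310 were called, and 272, 190, 917, 29, 480 and 164 to 493 in the order of these settings. The genes tested numbered 12621, or 11703 with length and GC removed, and differed slightly where a replicate was left out. At 6 h, with 3 called, there were 9 at 0.05, 1 fitted alone, 8 with length and GC removed and 1 to 6 with 1 replicate left out. Over all genes these were 1288 called, then 2434, 425, 1974 and 923 to 1542. At 12 h, with 5 called, there were 15, 1, 24 and 4 to 8, and over all genes 2533 called, then 3785, 1785, 3363 and 1988 to 2421. At 24 h, with 19 called, there were 31 at 0.05, 32 with length and GC removed and 15 to 20 with 1 replicate left out. Over all genes these were 5314 called, then 6640, 6135 and 4767 to 4994. For the 24 h minus 3 h difference, with 16 called, there were 28 at 0.05, 10 fitted alone and 11 to 17. Over all genes these were 3435 called, then 4922, 2809 and 3118 to 3763. The vehicle count of 51 ran from 44 to 55 with 1 replicate left out, and was 43 with quantile normalization, 57 with median-ratio scaling, 56 with length and GC removed and 60 at 0.05. Over all genes these were 7293 called, then 6760 to 7055, 7079, 7456, 7826 and 8330.

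With length and GC removed, the positive subunits at 6 h went from 58 of 74 to 38 of 73, and ATP5J2 and NDUFA13 both turned to -0.15 and passed the threshold (adjusted p = 0.000265 and 0.0009671). The medians of subunits at 3 h moved to 0.0082 in complex I, 0.029 in complex III, -0.021 in complex IV and -0.013 in complex V (-0.014 with quantile normalization), and the median of complex IV at 6 h moved to 0.0094.

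A replicate block, although the numbers did not pair CBD with vehicle samples of a time, gave 2 calls at 3 h, 2 at 6 h, 5 at 12 h, 17 at 24 h, 16 for the difference and 54 for vehicle time. Over all genes it gave 341, 1272, 2463, 5298, 3777 and 7545 calls. Same-numbered CBD and vehicle samples of a time correlated between -0.0757 and 0.0935. Values of a few percent rest on 4 samples a group of 1 line, and FPKM gives relative, not absolute, RNA amounts.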

Other observations

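The entries that share a name with the chain without being subunits were mostly low. The antisense RNAs NDUFB2-AS1 and NDUFV2-AS1 had mean FPKM of 0.365 and 0.227 and were not tested. NDUFA6-AS1, at 2.74, was tested. It is now named NDUFA6-DT and overlaps no exon of NDUFA6. The retrocopy UQCRHL was at 0.900, where its parent gene UQCRH was at 262. UQCRH shares 13.2% of its 50-base words with other annotated genes, of which UQCRHL holds the most of these words. ATP5J2-PTCD1, a readthrough transcript of ATP5J2 and its neighbour, was at 4.73, and reads of ATP5J2 can fall on either. COX7A2L, a factor that joins complexes into supercomplexes, was at 112, 110.1, 114 and 113 FPKM with vehicle and at 122, 117, 122 and 123 with CBD at 24 h. These groups did not overlap, but the log2 difference of 0.11 missed the threshold by limma with Benjamini-Hochberg adjustment (adjusted p = 0.01278). ATP5G1, 1 of 3 genes for the same c ring protein, was at 205, 227, 226 and 217 and at 233, 252, 233 and 247, without overlap, with a log2 difference of 0.14 (adjusted p = 0.01228).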
